A study of Mus musculus with 6 samples.

Results

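The genes described here write, read and protect histone H3 lysine 9 (H3K9) methylation and silence retroelements in stem cells: the H3K9 methyltransferase genes Setdb1, Ehmt1, Ehmt2, Suv39h1 and Suv39h2, the KAP1 co-repressor gene Trim28, the LSD1 histone demethylase gene Kdm1a, the heterochromatin protein 1 alpha (HP1α) gene Cbx5 and the chromatin remodeller gene Atrx. The members were every probe set annotated to 1 of these 9 genes alone, which gave 25 of the 45037 probe sets tested, from 8 genes. No probe set was matched to Suv39h1, and it was not analysed here. Atrx had 7 probe sets, Cbx5 5, Setdb1 and Suv39h2 3 each, Trim28, Ehmt2 and Kdm1a 2 each, and Ehmt1 1. Probe sets of 1 gene share a transcript and are not independent.

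RNA was measured on 6 Affymetrix arrays, 1 for each sample, from embryonic stem cells of mouse, strain background 129/B6 hybrid. Yaf2kd OHT+ cells (clones 3086 and 3087, labelled Mut Yaf2 and Mut RYBP) received 0.8 µM 4-hydroxytamoxifen (OHT) for 24 hours, given to deplete Rybp, and Yaf2kd OHT- cells of the same 2 clones were not treated. Yaf2wt OHT+ cells, which received the same 0.8 µM OHT for 24 hours, and untreated Yaf2wt OHT- cells came from the single clone 3031. Each Yaf2wt group thus holds 1 array and each Yaf2kd group 2. Yaf2 status and clone identity therefore cannot be told apart, and the Yaf2kd duplicates are separate clones. The driver of the recombinase, any gene change that all clones carry, the interval between treatment and harvest, and which samples grew on feeder fibroblasts and which on gelatin were not stated in the labels. RYBP and YAF2 are homologous subunits of variant Polycomb repressive complexes 1, among them PRC1.6, which also holds E2F6 and the MGA-MAX dimer.

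As background, zinc finger proteins with a KRAB domain bring KAP1 to retroelements, where KAP1 recruits SETDB1, which trimethylates H3K9. SUV39H1 and SUV39H2 deposit the same mark at pericentric repeats and young retroelements, EHMT2 (G9a) and EHMT1 (GLP) form the dimer behind most H3K9 dimethylation in euchromatin, and HP1 proteins bind the methylated tail. ATRX works with DAXX to place histone H3.3 at repeats, and LSD1 removes methyl groups from H3K4 within co-repressor complexes. Embryonic stem cells rely on this machinery to keep endogenous retroviruses and a number of germline and 2-cell-stage genes silent.

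The bases before the annotated starts of Suv39h2 and Atrx are shown because these genes hold the 3 probe sets with an unadjusted p under 0.05 in the OHT comparison. Each window is the 250 bases before 1 annotated start, 5′ to 3′ on the gene's strand, from RefSeq (GRCm38.p6), with matches to the E2F-type letters TTCCCGC or to the E-box CACGTG, searched on both strands, in capitals. The Suv39h2 window lies at chr2:3474987-3475236 on the minus strand and the Atrx window at chrX:105929373-105929622 on the minus strand.
Suv39h2: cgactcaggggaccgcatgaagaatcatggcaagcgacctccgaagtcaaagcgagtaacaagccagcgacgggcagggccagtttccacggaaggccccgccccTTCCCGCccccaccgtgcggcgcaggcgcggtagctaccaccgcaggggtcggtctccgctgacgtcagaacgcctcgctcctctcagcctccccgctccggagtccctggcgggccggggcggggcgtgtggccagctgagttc
Atrx: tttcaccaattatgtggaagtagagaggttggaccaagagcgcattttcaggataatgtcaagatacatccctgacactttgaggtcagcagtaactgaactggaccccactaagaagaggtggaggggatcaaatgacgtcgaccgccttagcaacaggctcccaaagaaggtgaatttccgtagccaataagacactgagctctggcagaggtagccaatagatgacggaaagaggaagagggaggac
The Suv39h2 window held 1 TTCCCGC, whose 5′ end is 145 bases before the start, and the Atrx window held neither motif. TTCCCGC was found in 2 of the 12 windows of the 9 genes (Suv39h2 and Trim28) and in 3.82% of all 32851 windows, and CACGTG in 3 of the 12 (1 of Cbx5 and 2 of Ehmt2) and in 6.02% of all; the 2 motifs do not overlap in these windows. The Suv39h2 window held 27 CG dinucleotides and the Atrx window 6, where the median over all windows was 6 and over the 12 windows 19.5. Both motifs hold a CG, and the shares over all windows are not matched for CG content, so the counts do not show enrichment.

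The arrays carried the embryonic stem cell profile their label gives. All 8 embryonic stem cell markers checked were above the limit for dim probe sets on every array; this limit, an intensity of 61.5, leaves the lower 40% of probe sets by mean signal below it. The summed level of 10 fibroblast markers lay between 16056 and 18303 on the OHT+ arrays and between 14088 and 17230 on the OHT- arrays, with 10 of 10 and 9 of 10 above the limit, and 9 of the 10 genes had a positive OHT difference (median 0.38, log2). Fn1, at 8127 to 11463, made up most of each sum and was the 1 marker with a negative difference (-0.03). The sums therefore say little about the other markers, of which Pdgfrb had the largest difference (1.34), and 0 of the 10 passed. At an unadjusted p under 0.05 (limma) there were 5 of the 10, against 1803 of 18193 genes by their brightest probe sets. The part of fibroblast RNA in the differences below was not tested. The 6 arrays correlated pairwise at 0.919 to 0.935 (log2 intensity, all probe sets). The 2 probe sets annotated jointly to Rybp and Rybp-ps moved in opposite directions with OHT: 1421111_at was at 101, 53.9 and 102 on the OHT+ arrays of clones 3086, 3087 and 3031, against 1785, 2262 and 1997 on their OHT- arrays, and 1428219_at was at 3443, 2796 and 3247, against 211, 336 and 179.9. They separate treated from untreated arrays but do not give the amount of intact Rybp transcript. The brighter Yaf2 probe set averaged 276 ± 27.2 on Yaf2kd arrays (SD, n = 4) and 793 ± 33.6 on Yaf2wt arrays (n = 2).

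The OHT comparison asks whether the silencing machinery differs between OHT+ and OHT- cells. The Rybp probe sets changed with OHT in all 3 clones, so Rybp depletion and other effects of OHT cannot be told apart. None of the 25 probe sets passed in the limma fit over the 3 clones (adjusted p 0.482 to 0.998, threshold 0.05 after Benjamini-Hochberg adjustment), where 0.14% of all probe sets did (63, of which 52 rose, 0.115%, and 11 fell, 0.0244%). At an unadjusted p under 0.05 there were 3 of 25, 1 of Atrx and 2 of Suv39h2, against 7.99% of all. Above the dim limit there were 3 of 23, against 2648 of 27022. Of the 25, 13 had a positive and 12 a negative difference, with a median of 0.0050 (log2), against -0.0073 over all probe sets. The direction was higher in all 3 clones for 9 of 25 probe sets, against 15% of all, and lower in all 3 for 7 of 25, against 16.2%. The shares of all include the dim probe sets and are not matched to the members for signal. These 9 came from Atrx (5), Cbx5 (3) and Kdm1a (1), and the 7 from Suv39h2 (3), Trim28 (2), Setdb1 (1) and Ehmt2 (1). With the clone as a block, 101 probe sets passed over the whole table and again 0 of the 25; the 63 calls became 14 without the Yaf2wt OHT+ array, 17 without the Yaf2wt OHT- array, 21 and 17 without the OHT+ array of clone 3086 and of clone 3087, and 18, 205 and 293 without clone 3031, 3086 and 3087.

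**Figure D1:**
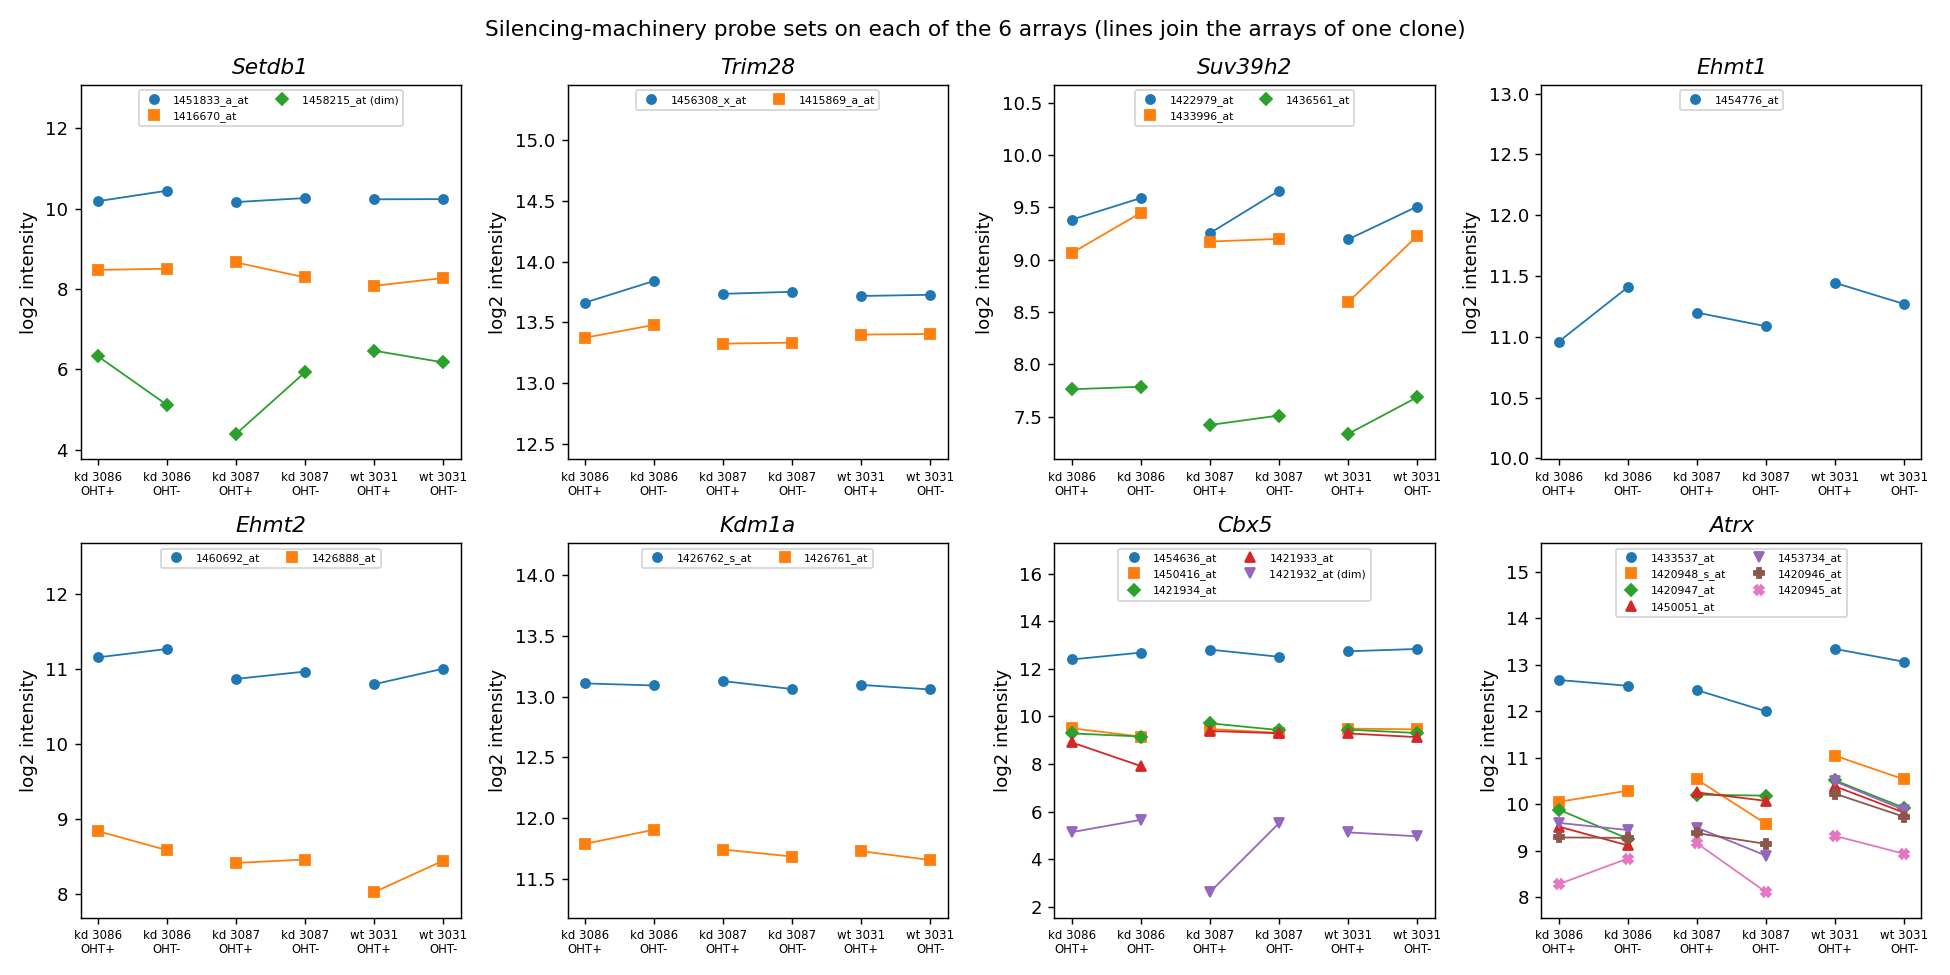
Log2 intensity (y axis) of each of the 25 probe sets on the 6 arrays (x axis, OHT+ beside OHT- for each clone), 1 panel a gene, with a line joining the 2 arrays of a clone. Trim28 and Kdm1a are nearly level across arrays, all 3 Suv39h2 probe sets are lower with OHT in every clone, and most Atrx probe sets are highest in the Yaf2wt clone; levels of different probe sets are not comparable.

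Neither Trim28 nor Setdb1 passed, and Trim28 had the narrower intervals. Trim28, the scaffold of the complex, was at 12958, 13627 and 13461 on the OHT+ arrays of clones 3086, 3087 and 3031 and at 14666, 13786 and 13553 on their OHT- arrays by probe set 1456308_x_at. The OHT+ arrays were lower in each clone but the groups overlapped, with a difference of -0.07 ± 0.08 (log2 ± SE). Its 95% interval ran from -0.24 to 0.10. The other Trim28 probe set, 1415869_a_at, gave -0.04 (interval -0.21 to 0.13). The brightest Setdb1 probe set, 1451833_a_at, averaged 1174 ± 28.5 on the OHT+ arrays and 1279 ± 103 on the OHT- arrays (SD, n = 3 each). All OHT+ values lay below all OHT- values, as for 3 of the 25 probe sets and 6.4% of all, yet the step in clone 3031 was only -0.0051, and the fitted difference was -0.12 ± 0.10. The second, 1416670_at, was at 0.05 ± 0.17, higher in clone 3087 and lower in the other 2. The third, 1458215_at, is dim and its values, 80.3, 21.0 and 88.3 with OHT and 34.7, 61.1 and 72.2 without, moved in both directions.

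Suv39h2, which codes for a trimethylase of H3K9 at constitutive heterochromatin, was lower on the OHT+ array in every clone by each of its 3 probe sets. Probe set 1422979_at was at 666, 609.8 and 585 on the OHT+ arrays of clones 3086, 3087 and 3031, against 769, 808 and 727 on their OHT- arrays. The groups did not overlap, and the difference was -0.31 ± 0.11 (interval -0.56 to -0.05), with an adjusted p of 0.538 in limma. Probe set 1433996_at was at 535, 577 and 386 with OHT, against 698, 587 and 599 without it. Here too the groups did not overlap, though clone 3087 differed by only -0.03 where clone 3031 differed by -0.63, and the fit gave -0.35 ± 0.14 (adjusted p 0.594). Probe set 1436561_at was at 217, 171 and 161 with OHT, against 220.5, 182 and 206 without it, and these groups overlapped (-0.16 ± 0.22). Under every alternative run the differences of the first 2 probe sets stayed negative, between -0.36 and -0.26 and between -0.51 and -0.20, and none passed (lowest adjusted p 0.175).

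Neither gene of the G9a-GLP pair passed. Ehmt1, for GLP, was at 1991, 2349 and 2784 on the OHT+ arrays of clones 3086, 3087 and 3031, against 2715, 2174 and 2467 on their OHT- arrays: lower in clone 3086, higher in the others, with a fitted difference of -0.05 ± 0.12. The brighter Ehmt2 probe set, 1460692_at, for G9a, was lower with OHT in each clone, at 2281, 1869.9 and 1781 against 2465, 2002 and 2055. The groups overlapped, and the difference was -0.14 ± 0.11 (interval -0.40 to 0.12). The dimmer Ehmt2 probe set, 1426888_at, disagreed in clone 3086, where it was higher with OHT, and gave -0.07 ± 0.18.

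Kdm1a, the LSD1 gene, was close to level. Its brighter probe set, 1426762_s_at, was at 8827, 8947 and 8753 on the OHT+ arrays, against 8724, 8546 and 8528 on the OHT- arrays of the same clones. The OHT+ values lay above the OHT- values without overlap, as for 2 of the 25 probe sets and 6.13% of all, but the difference was 0.04 ± 0.07 and its interval ran from -0.12 to 0.20. The other probe set, 1426761_at, averaged 3451 ± 75.9 with OHT and 3449 ± 333 without it (SD, n = 3 each).

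Cbx5, for HP1α, gave different readings by probe set. The brightest, 1454636_at, was at 5382, 7179 and 6826 on the OHT+ arrays of clones 3086, 3087 and 3031, against 6576, 5821 and 7312 on their OHT- arrays, so its direction differed between clones (-0.03 ± 0.11). Probe sets 1450416_at, 1421934_at and 1421933_at were higher with OHT in all 3 clones, by 0.18 ± 0.12, 0.19 ± 0.15 and 0.42 ± 0.30. For 1450416_at the groups did not overlap, at 726, 710.4 and 719.6 against 568, 635 and 702. The size of the 1421933_at difference came mainly from clone 3086 (481 with OHT and 241 without it); without the OHT- array of that clone it was -0.014, and without the clone 0.13. The last probe set, 1421932_at, is dim, with a mean intensity of 34.0.

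Atrx, on the X chromosome, had a positive OHT difference by all 7 probe sets, from 0.25 to 0.46 (log2). Its brightest probe set, 1433537_at, was at 6532, 5617 and 10379.7 on the OHT+ arrays of clones 3086, 3087 and 3031, against 5990.1, 4089.5 and 8573 on their OHT- arrays. It was higher with OHT in each clone (0.29 ± 0.13, adjusted p 0.637 in limma). The groups overlapped, since clone 3031 without OHT lay above clones 3086 and 3087 with it. Probe set 1453734_at was at 774, 721 and 1437 with OHT, against 696, 475 and 939 without it, and had the largest positive difference of the 25 (0.46 ± 0.15, interval 0.11 to 0.80, adjusted p 0.482). In clone 3086, 1420948_s_at and 1420945_at were lower with OHT (-0.24 and -0.55), while both were about 1 log2 unit higher with it in clone 3087 (0.96 and 1.05). Conversely, 1420947_at was 0.62 higher in clone 3086 and 0.02 in clone 3087. Single calls appeared when a clone was left out, in limma fits on the 4 arrays of 2 clones. Without clone 3086, 1420948_s_at passed (0.73 ± 0.13, adjusted p 0.0108), and without clone 3087, 1420947_at passed (0.61 ± 0.12, adjusted p 0.0239). Each of these fits left out the clone with the lowest difference for that probe set. Both also called more probe sets over the whole table than the fit on all arrays, as given above. Over X-linked probe sets above the dim limit the median OHT difference was 0.0060 (n = 759).

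**Figure D2:**
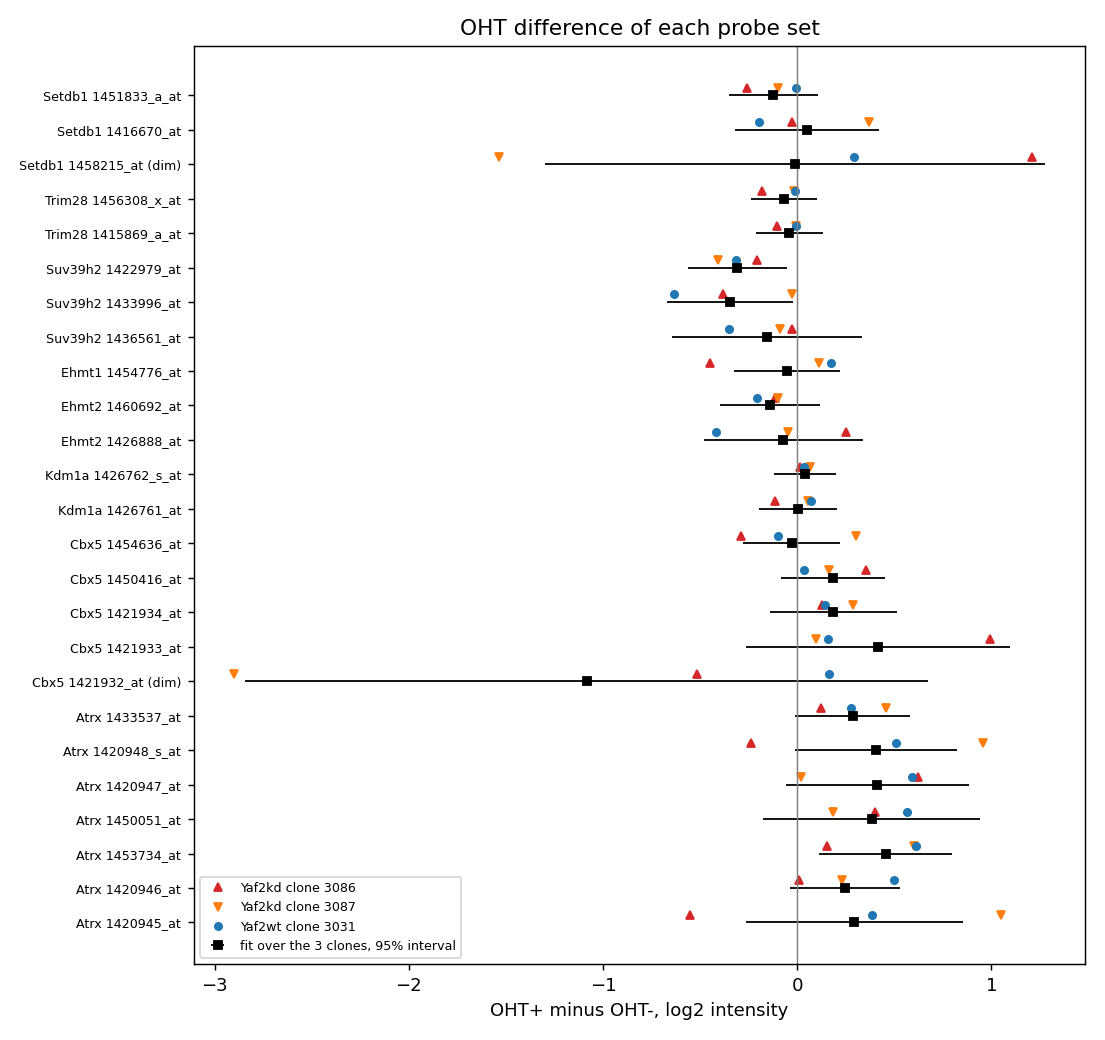
OHT+ minus OHT- difference in log2 intensity (x axis) of each probe set (y axis): black squares with bars are the fit over the 3 clones with its 95% interval, coloured points the 3 clones. Suv39h2 lies left of 0 and Atrx right of 0 by every fitted value, and the 2 dim probe sets have by far the widest intervals.

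The Yaf2 comparisons ask how the knockdown clones differ from the wild-type clone, with OHT and without it. None of the 25 probe sets passed in either (limma adjusted p 0.923 or above), and neither did any of the whole table (0% of 45037 in both). At an unadjusted p under 0.05 there were 5 of the 25 with OHT, against 5.38% of all, and 3 of 25 without OHT, against 4.01% of all. All 3 without OHT and 4 of the 5 with it were Atrx probe sets, and the remaining one was 1433996_at of Suv39h2 (0.52 ± 0.22). The median over the 25 was -0.06 with OHT and -0.02 without it, and over all probe sets 0.0050 and -0.0089.

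For Atrx the fitted Yaf2kd minus Yaf2wt difference was negative by all 7 probe sets in both conditions. For 4 of them (1433537_at, 1420948_s_at, 1453734_at and 1420946_at) all 4 Yaf2kd arrays lay below both Yaf2wt arrays, which held for 9% of all probe sets. Probe set 1433537_at averaged 5557 ± 1048 on Yaf2kd arrays (SD, n = 4) and 9476 ± 1278 on Yaf2wt arrays (n = 2). Its difference was -0.78 ± 0.22 with OHT and -0.79 ± 0.22 without it, with intervals of -1.29 to -0.27 and -1.30 to -0.28. For 1453734_at the differences were -0.94 ± 0.25 and -0.71 ± 0.25, and for 1420946_at -0.89 ± 0.19 and -0.52 ± 0.19. Probe set 1420946_at was at 623 and 664 with OHT and at 618 and 565 without it in clones 3086 and 3087, and at 1196 and 848 in clone 3031. The knockdown clones were thus close to each other by this probe set. By 1420947_at and 1450051_at they were not: by the first, clones 3086 and 3087 were at 943 and 1179.8 with OHT, against 1459 in clone 3031, and at 612 and 1162 without OHT, against 968. By the second they were at 553 and 1075 without OHT, against 902. Clone 3087 thus lay above clone 3031 without OHT by both, and without the OHT- array of clone 3086 these differences, -0.20 and -0.23 with all arrays, were 0.26 and 0.25. Over the 759 X-linked probe sets above the dim limit the median difference was 0.02 with OHT and -0.0003 without it, and 10.5% of them had all Yaf2kd arrays below the Yaf2wt arrays, as did 9.23% of autosomal ones above that limit. Of the 10 fibroblast markers, 9 were higher in the Yaf2kd clones with OHT (median 0.59) and 8 without it (median 0.17), and 0 passed; their part in the Atrx difference was not tested.

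By their brightest probe sets, the other 7 genes lay between -0.36 and 0.21, and other probe sets of some of them lay further from 0. With OHT and without it, the Yaf2kd minus Yaf2wt difference was -0.02 ± 0.13 and 0.07 ± 0.13 for Trim28 (1456308_x_at), 0.02 ± 0.13 and 0.02 ± 0.13 for Kdm1a (1426762_s_at), and -0.06 ± 0.17 and 0.12 ± 0.17 for Setdb1 (1451833_a_at). The intervals of these Trim28 and Kdm1a probe sets reached at most 0.36 from 0. The corresponding values were 0.12 ± 0.20 and 0.12 ± 0.20 for Suv39h2 (1422979_at), 0.21 ± 0.19 and 0.11 ± 0.19 for Ehmt2 (1460692_at), -0.36 ± 0.19 and -0.02 ± 0.19 for Ehmt1, and -0.14 ± 0.19 and -0.24 ± 0.19 for Cbx5 (1454636_at). Setdb1 had 1 probe set, 1416670_at, with all Yaf2kd arrays above the Yaf2wt arrays, as had 9.16% of all, at 356 and 405 with OHT and 363 and 313 without it in the Yaf2kd clones, against 271 and 309.9 in the Yaf2wt clone. Its difference was 0.49 ± 0.27 with OHT and 0.12 ± 0.27 without it. For Ehmt2 1426888_at the values were 0.60 ± 0.28 and 0.08 ± 0.28, and for Suv39h2 1433996_at 0.52 ± 0.22 and 0.10 ± 0.22. Cbx5 1421933_at was at -0.14 ± 0.49 with OHT and -0.53 ± 0.49 without it.

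**Figure D3:**
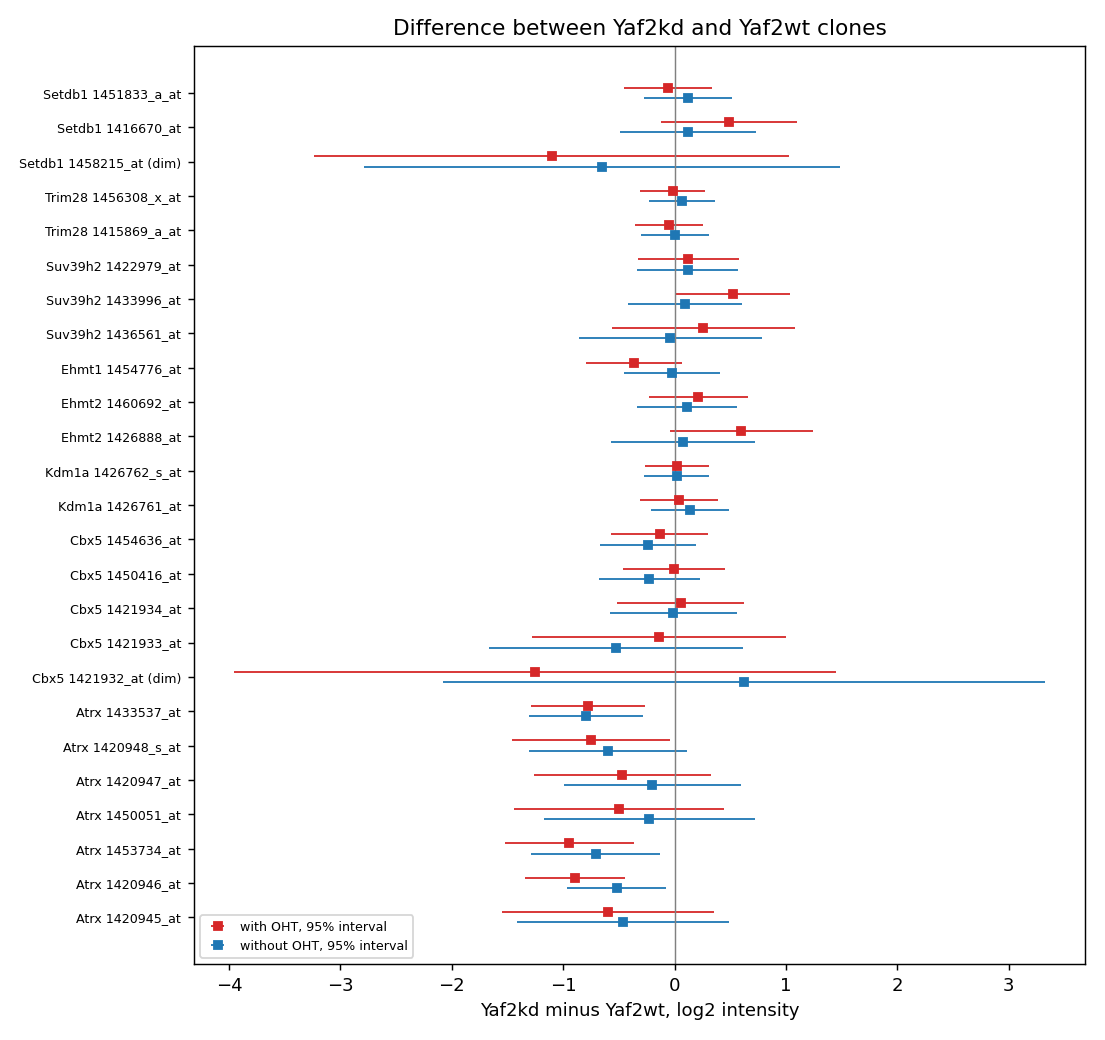
Yaf2kd minus Yaf2wt difference in log2 intensity (x axis) of each probe set (y axis), with OHT (red) and without it (blue); bars are 95% intervals from the fit of the 4 groups. All Atrx values lie left of 0, as do both of Ehmt1, and all of Ehmt2 and Kdm1a lie right of it. The remaining genes have values on both sides.

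Cells with Yaf2 knockdown and OHT (Yaf2kd OHT+) were also set against cells with neither (Yaf2wt OHT-), a comparison called the combined loss below. In limma 0 of the 25 passed, 0 at an unadjusted p under 0.05 against 6.11% of all, and the values above the dim limit ran from -0.50 to 0.29; 0.00444% of all probe sets passed, namely the 2 annotated jointly to Rybp and Rybp-ps. For Atrx the 1433537_at values were 6532 and 5617 in Yaf2kd OHT+ cells, against 8573 in Yaf2wt OHT- cells (-0.50 ± 0.22). This comparison shares its arrays with those above. Whether the OHT difference depends on Yaf2 was tested as the difference of the OHT differences in Yaf2kd and Yaf2wt cells. None of the 25 passed (0% of all), and 0 of them had an unadjusted p under 0.05, against 2.39% of all.

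The other genes of the pathway gave 45 genes with a single-gene probe set, of 50 listed, each taken by its brightest one. With OHT 0 passed (limma), and 8 of the 45 had an unadjusted p under 0.05, against 1803 of all 18193 genes by their brightest probe sets. In direction, 20 were higher and 25 lower, against 8999 and 9194 of all genes. The median was -0.01, and over all genes it was -0.0036. Cdyl2, for a chromodomain homologue of the G9a partner CDYL, was at 2941, 2766 and 3151 on the OHT+ arrays of clones 3086, 3087 and 3031, against 2018, 2267 and 2535 on their OHT- arrays (0.38 ± 0.09, adjusted p 0.250), without overlap. Zfp644, for a zinc finger partner of G9a and GLP, stood at -0.35 ± 0.11. Atf7ip, for the partner that stabilises SETDB1, was at 798, 703 and 827 with OHT, against 1022, 951 and 1071 without it (-0.39 ± 0.11, adjusted p 0.356), again without overlap. Phf21a, for a reader of unmethylated H3K4 in the LSD1 complex, stood at -0.40 ± 0.12, and the deacetylase gene Hdac2 at 0.23 ± 0.07. Of the HUSH complex and MORC genes, Mphosph8 was at 0.23 ± 0.09 and Morc2a at -0.24 ± 0.10. Among the H3K9 demethylases Kdm7a was at -0.24 ± 0.10 and X-linked Phf8 at -0.23 ± 0.14, the HP1γ gene Cbx3 was at 0.36 ± 0.23, and the H3.3 gene H3f3a at 0.21 ± 0.24. None of these passed. The Cbx3 and H3f3a values rest on weak probe sets, with mean intensities of 149 and 290. Probe sets annotated to several genes were not considered, so these may not be the main signal of either gene. In the Yaf2 comparisons 0 of the 45 passed either, with medians of -0.11 with OHT and -0.09 without it, against 0.05 and 0.01 over all genes. Of the 45, 30 were lower in the Yaf2kd clones with OHT and 28 without it, against 8178 and 8782 of all 18193 genes. At an unadjusted p under 0.05 (limma) there were 5 of the 45 with OHT and 1 without it, against 946 and 731 of all genes. The HUSH gene Tasor was at 1368 and 1232 with OHT in clones 3086 and 3087, against 2028 in clone 3031. Without OHT it was at 1322 and 1163, against 2102. All its Yaf2kd arrays lay below both Yaf2wt arrays, as for 9% of all probe sets (-0.64 ± 0.17 with OHT and -0.76 ± 0.17 without it).

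Genes derived from retroelements and genes reported to rise on loss of this machinery were also examined. Whether their levels report on this machinery in these cells was not tested. Of 4 retroelement-derived genes measured, of 9 listed, 0 passed; L1td1, a domesticated LINE-1 gene of pluripotent cells, was at 7069.6, 6014 and 8473 on the OHT+ arrays, against 9531, 8072 and 9991 on the OHT- arrays (-0.36 ± 0.10, adjusted p 0.340), and Peg10 at 0.42 ± 0.32. Of 8 genes measured of the second list, of 15 listed, 4 rose with OHT, against 0.187% of all genes by their brightest probe sets: Usp17la, a deubiquitinase gene of the 2-cell stage (3.37 ± 0.27, adjusted p 9.90e-04), Taf7l, a germ cell TFIID subunit gene (1.92 ± 0.18, 0.00305), the piRNA pathway gene Mael (1.77 ± 0.13, 7.37e-04) and Dazl, for an RNA-binding protein of germ cells (1.59 ± 0.14, 0.00253). Mael was at 2275, 2726 and 1881 with OHT, against 603, 755 and 645 without it. Usp17la was below the dim limit on all 3 OHT- arrays (55.3, 54.3 and 59.3), so its fold is uncertain. The other 4 measured genes did not pass: Tdpoz1 stood at -1.75 ± 0.81, Tcstv1 at -0.32 ± 0.90, Tcstv3 at 1.54 ± 0.98 and Wfdc15a at 0.64 ± 0.69, the first 3 of them dim. The 4 that passed were known to rise from earlier results on the same arrays and are given for scale beside the machinery. None passed without the intensity trend (adjusted p 0.296 for Usp17la and 0.365 for the other 3). Usp17la, Dazl and Taf7l missed the threshold without the Yaf2wt OHT+ array, and Dazl and Taf7l also without the Yaf2wt OHT- array or without clone 3031.

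**Figure D4:**
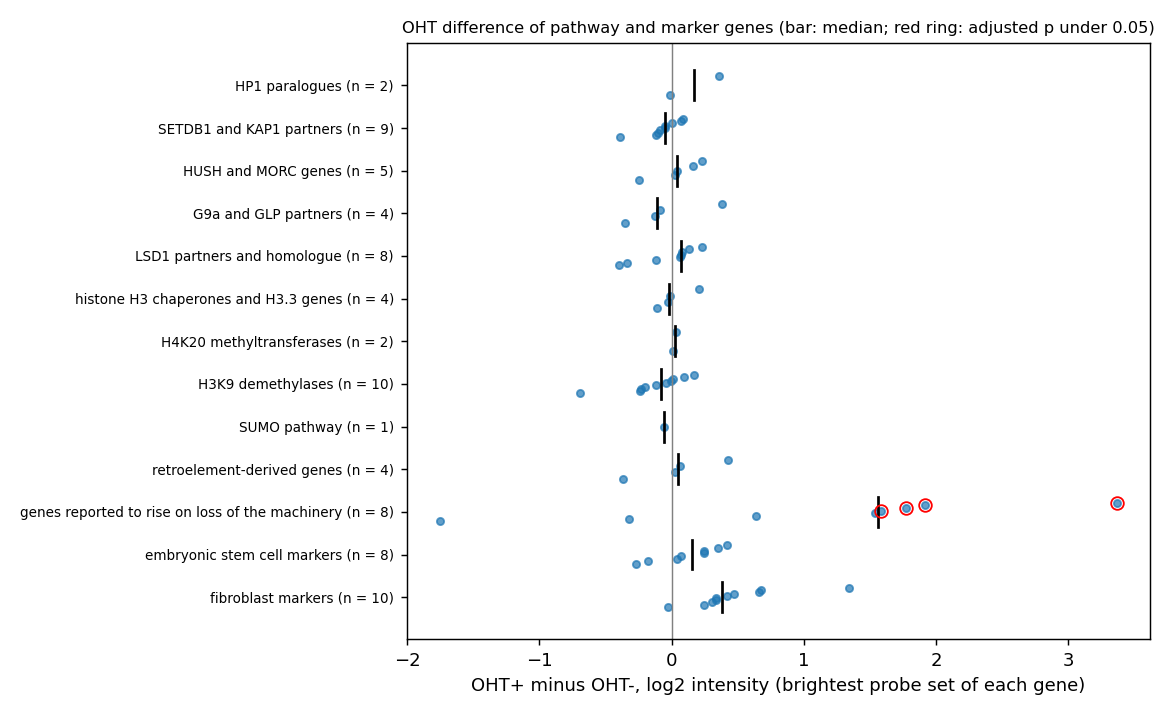
OHT+ minus OHT- difference in log2 intensity (x axis) of the brightest probe set of each gene, by list (y axis); black bars are list medians and red rings genes with an adjusted p under 0.05. The lists of silencing machinery centre near 0, and the 4 ringed genes, between 1.59 and 3.37, are Dazl, Mael, Taf7l and Usp17la.

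The signal sets what could be seen. Of the 25 probe sets 23 were above the dim limit and 8 lay in decile 10, the brightest, by mean signal, where the median 95% interval of the OHT difference reached 0.21 to either side. In decile 3, where the dim Cbx5 probe set lies, it reached 1.64. For Trim28 and Kdm1a the data thus bound an OHT difference to at most 0.24 in either direction, whereas the intervals of the 3 Suv39h2 probe sets together ran from -0.67 to 0.33 and those of the 7 Atrx probe sets from -0.26 to 0.94. Those of 1 Suv39h2 and 6 Atrx probe sets included 0. A protein level, an activity or a histone mark was not measured.

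**Figure D5:**
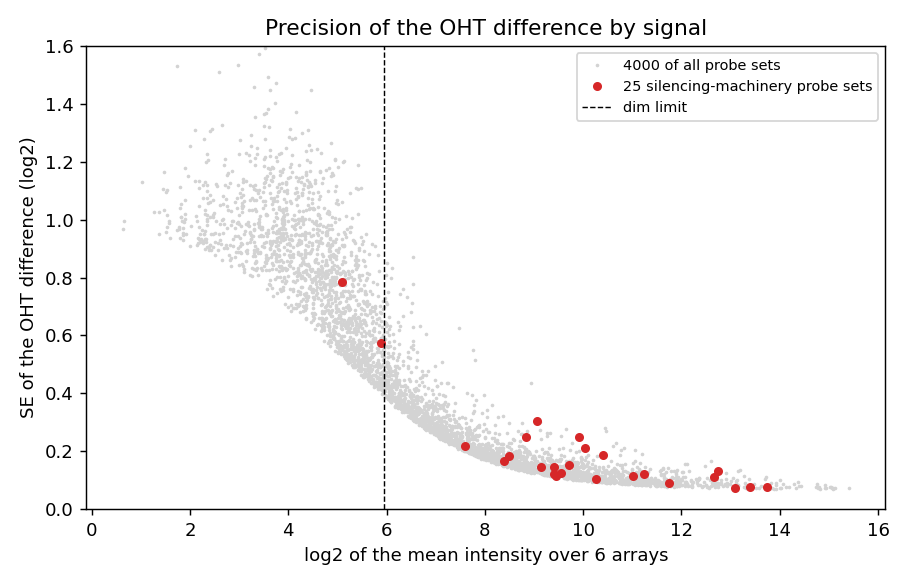
Standard error of the OHT difference (y axis, log2) against log2 of the mean intensity over the 6 arrays (x axis), for 4000 of all probe sets (grey) and the 25 probe sets described (red); the dashed line is the dim limit. A few grey points lie above the axis limit; the error falls with signal, and 23 of the 25 lie above the limit.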

How the data were processed

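Total RNA of 6 cultures was labelled with biotin and hybridised to arrays, 1 per sample. The labels call the array 430A 2.0, and the deposited table has 45101 probe sets. The deposited values are linear intensity; per the submitters' processing notes Affymetrix Expression Console and RMA were used, whose versions and settings are not stated. These values run from 0.140 to 45795, and the sorted values are identical between arrays, as quantile normalization leaves them.

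After removing 64 control probe sets, log2 intensity of 45037 probe sets was fitted with limma 3.58.1 (lmFit, eBayes with an intensity trend) under R 4.3.3; p-values were adjusted by Benjamini-Hochberg over the whole table, threshold 0.05. The trend was used because the median replicate SD (log2) was 0.87 for dim probe sets and 0.21 for the others. OHT was fitted with Yaf2 status on all 6 arrays, and the other comparisons came from a model of the 4 groups, which takes the spread of a lone Yaf2wt array to be that of the Yaf2kd duplicates. The labels give OHT+ and OHT- arrays of the same clone, so the clone pairs them; residuals of same-clone arrays correlated at 0.12. The fits were also run on simulated data with independent noise and no clone effect, which cannot test how clone differences act on them. Intervals are 95% from the moderated fit.

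Genes were named by Entrez ID through RefSeq (99.4% of single-gene probe sets matched); a gene on a list stands by its brightest probe set (mean log2). Probe sets annotated to several genes (932) or none (9160) were left unnamed. Members, lists and tests were chosen with earlier results of these data known. Named genes were Rybp, Yaf2, all members, every list gene past the threshold, and up to 2 per pathway list with the largest OHT difference above the dim limit and in 1 direction in all 3 clones. Tasor, Fn1 and Pdgfrb were also named, outside this rule. Alternatives were no trend, no dim probe sets, 1 probe set per gene, log2(intensity + 16), the clone as a block, and each array or clone left out. Precision is limited by the number of arrays; p-values measure the spread between these samples only.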

Additional observations from a re-analysis of the deposited data

How the results depend on the processing

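With the clone as a replicate block the OHT comparison called 101 probe sets in place of 63, and without an intensity trend 0; leaving out 1 array or clone gave 14 to 293. The combined loss called 0 in place of 2 without the trend, 13 with dim probe sets left out and 4 with 1 probe set per gene, and 0 to 7 with 1 array left out. Of the 25 probe sets 0 were called under each processing alternative in each of the 5 comparisons; leaving out arrays or clones gave 0 to 1 in the OHT comparison and 0 in the other 4. The block changed no call among the 25. Among the processing alternatives 1 of the 106 OHT values changed sign, that of the dim Setdb1 1458215_at (0.037 with log2(intensity + 16)), and 0 of the 81 values in each of the 2 Yaf2 comparisons. With arrays or clones left out the OHT difference changed sign for Atrx 1420945_at (-0.083 to 0.72), Cbx5 1421933_at (-0.014 to 0.77), Cbx5 1454636_at (-0.19 to 0.10), Ehmt1 1454776_at (-0.17 to 0.14), Ehmt2 1426888_at (-0.24 to 0.10), Kdm1a 1426761_at (-0.048 to 0.078), Setdb1 1416670_at (-0.11 to 0.17), Setdb1 1458215_at (-0.62 to 0.75), Trim28 1415869_a_at (-0.076 to 0.0070). The Yaf2 difference with OHT did so for Cbx5 1421932_at (-2.51 to 0.0087), Cbx5 1421933_at (-0.38 to 0.10), Cbx5 1421934_at (-0.16 to 0.27), Cbx5 1450416_at (-0.018 to 0.013), Cbx5 1454636_at (-0.34 to 0.073), Trim28 1456308_x_at (-0.055 to 0.018). Without OHT it did so for Atrx 1420947_at (-0.66 to 0.26), Atrx 1450051_at (-0.70 to 0.25), Cbx5 1421933_at (-1.21 to 0.16), Cbx5 1421934_at (-0.15 to 0.12), Ehmt1 1454776_at (-0.18 to 0.14), Ehmt2 1460692_at (-0.038 to 0.26), Suv39h2 1433996_at (-0.029 to 0.22), Suv39h2 1436561_at (-0.18 to 0.10), Trim28 1415869_a_at (-0.072 to 0.074). The cause was not tested, apart from fewer arrays or features in such fits. The Yaf2 comparisons cannot be estimated without their Yaf2wt array, nor can the difference of the OHT effects, and the Yaf2 comparisons have no clone block, since each clone has 1 Yaf2 status. Low signal over background limits the 2 dim probe sets.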
